A study of Rattus norvegicus with 12 samples.

Results

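Two-pore-domain potassium channel genes were followed in the striatum of 12 rats. The set held 8 gene symbols, namely *Kcnk1*, *Kcnk2*, *Kcnk3*, *Kcnk4*, *Kcnk6*, *Kcnk9*, *Kcnk10* and *Kcnk12*, and all 8 were rows of a count table of 17337 genes. The family was chosen from results of these data that were already known, since *Kcnk4* stood among the larger rises in MA24 vs MA12. Its members' values in that comparison are therefore a description without a p-value, and so are those of *Kcnk4* in both other comparisons, which share its rats. Of the 8 genes, 7 had counts, and these 7 passed the filters on low values and low variance in all 3 comparisons. *Kcnk6* had no count in any library.

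Poly-A RNA of the whole striatum was sequenced in 3 groups of 4 male Sprague–Dawley rats, and the labels place all 12 rats after 16 days of methamphetamine (MA) self-administration. MA12 rats were killed 12 h and MA24 rats 24 h after their last session. The third group carries the label non-addicted, and neither the labels nor the study's methods say how those rats were told from the others or how long they abstained. MA12 and MA24 rats were collected 12 h apart on the clock, so that time of day and length of abstinence cannot be told apart. The rat numbers end in the letter N in all MA24 rats, in 2 of 4 MA12 rats and in no non-addicted rat, and the meaning of N is not given in the sources used here. Library totals lay between 17908962 and 23850284 counts. Markers of striatal projection neurons, the main cell type of this tissue, were all present and summed to between 13700.2 and 18177 CPM per rat, against 11.4 to 23.0 CPM for 5 cortical markers.

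Two-pore-domain channels are potassium channels that are open at rest. Each subunit carries a pair of pore loops, and channels form as dimers. They pass the leak current that holds neurons and glia near the potassium equilibrium potential, so their activity sets how readily a cell fires, and they respond to stretch, lipids, pH, temperature, volatile anaesthetics and G protein signalling. The TWIK branch holds *Kcnk1* and *Kcnk6*. The mechanically gated and lipid-gated TREK/TRAAK branch holds *Kcnk2*, *Kcnk10* and *Kcnk4*. The acid-sensitive TASK branch holds *Kcnk3* and *Kcnk9*, and *Kcnk12* belongs to the halothane-inhibited THIK branch.

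Of the members, *Kcnk4* had 1 and *Kcnk2* had 2 promoter windows in the RefSeq tables of the GRCr8 assembly. The 250 bases before each start site are shown because *Kcnk4* had the largest rise of the family in MA24 vs MA12, while *Kcnk2* had the highest counts and a log2 difference near 0 in it. All are read on the minus strand, 5′ to 3′, with capitals for any match to 4 motifs searched on both strands. These were the E-box CACGTG, the cAMP response element TGACGTCA, the GC box GGGCGG and the TATA box TATAAA, none of which overlaps another.
Kcnk4, chr1:213555862-213556111: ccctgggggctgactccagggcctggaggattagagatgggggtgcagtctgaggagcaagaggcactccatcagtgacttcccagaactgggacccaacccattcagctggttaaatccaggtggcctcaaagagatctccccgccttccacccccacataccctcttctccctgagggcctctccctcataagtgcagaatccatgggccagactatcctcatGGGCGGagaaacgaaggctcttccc
Kcnk2, first window, chr13:103438643-103438892: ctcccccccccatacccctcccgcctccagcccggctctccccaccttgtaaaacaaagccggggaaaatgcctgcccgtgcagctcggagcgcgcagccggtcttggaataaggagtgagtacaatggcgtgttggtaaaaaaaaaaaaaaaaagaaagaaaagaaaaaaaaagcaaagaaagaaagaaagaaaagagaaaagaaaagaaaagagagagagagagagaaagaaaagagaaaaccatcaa
Kcnk2, second window, chr13:103494687-103494936: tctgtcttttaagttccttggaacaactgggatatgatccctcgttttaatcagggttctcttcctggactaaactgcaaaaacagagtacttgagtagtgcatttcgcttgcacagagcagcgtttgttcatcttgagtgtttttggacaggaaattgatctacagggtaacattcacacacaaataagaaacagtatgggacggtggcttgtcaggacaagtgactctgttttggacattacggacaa
The *Kcnk4* stretch held 1 GC box, which begins 25 and ends 20 bases before the start site. Among 33469 stretches of the same length, 30.5% held a GC box, 5.59% the E-box, 1.59% the cAMP response element and 12.9% the TATA box. Neither *Kcnk2* stretch held any of these letters. GC content was 58.4% in the *Kcnk4* stretch, and 45.6% and 42% in those of *Kcnk2*, against a median of 51.2% over all stretches. CG dinucleotides numbered 3 for *Kcnk4*, and 9 and 5 for *Kcnk2*, with a median of 5. Such matches describe the letters only.

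At 24 h of abstinence, *Kcnk4* was higher and *Kcnk9* lower than at 12 h in every rat of the group, while *Kcnk1* and *Kcnk2* stayed close to the level at 12 h. In the non-addicted rats, *Kcnk4* overlapped its MA24 range, and the low-count genes *Kcnk10* and *Kcnk12* had their highest group means. Apart from *Kcnk4* in MA24 vs MA12, no member met the threshold for a differentially expressed gene (DEG), which was a fold change (FC) of 1.5 or more together with an adjusted p below 0.05 in edgeR's quasi-likelihood test. The *Kcnk4* call is a description only, since the family was chosen from that comparison. Levels are CPM, the counts scaled to a common library size after TMM normalization, or their log2 value with a prior count of 2, and differences are log2FC with the standard error of the fit. In RNA of a whole tissue, fewer cells of a type and less RNA per cell cannot be told apart.

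**Figure D1:**
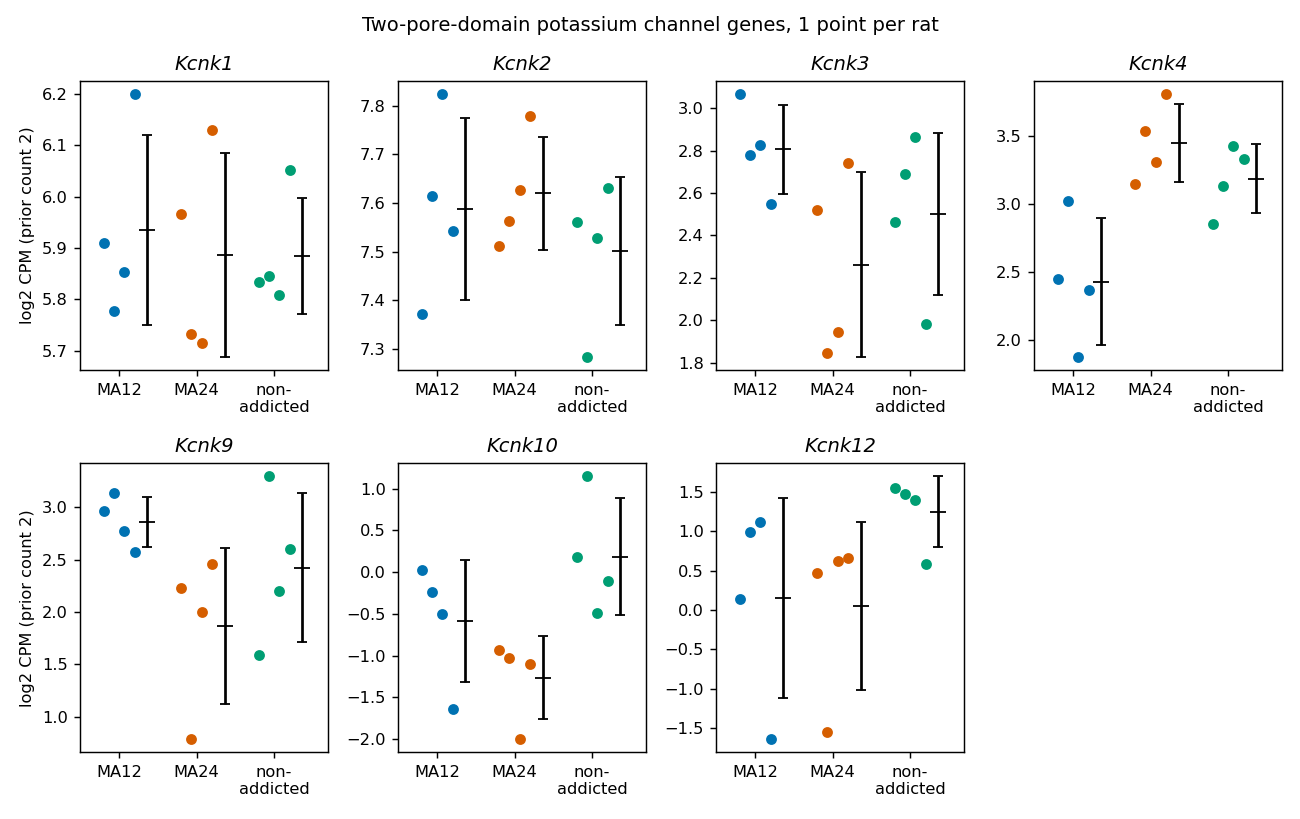
Log2 CPM (prior count 2) of the 7 members with counts, 1 point per rat, with the mean and SD of each group of 4 in black beside the points and a scale of its own for each gene. The MA24 points lie above all MA12 points for Kcnk4 and below them for Kcnk9, and 1 MA24 rat and 1 MA12 rat lie far below their groups for Kcnk12.

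The first question was how the level at 24 h differed from that at 12 h. Among the 7 members tested, 1 was a DEG, against 2.45% of the 10754 genes tested (264 DEGs, 79 higher and 185 lower in MA24). The groups did not overlap for 2 members, against 15.5% of all genes. Because the family was picked with this comparison in view, nothing is read from these shares. The members' log2FC ran from −0.90 to 0.99 with a median of −0.23, and 5 of 7 were below 0. Over all genes tested the median was −0.016.

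*Kcnk4* encodes TRAAK, a channel that opens with membrane stretch and arachidonic acid. Its level was 5.38, 8.02, 3.57 and 5.08 CPM in MA12 rats 21, 31, 4N and 7N, and 8.77, 11.5, 9.82 and 13.9 CPM in MA24 rats 9N, 14N, 15N and 16N. Every MA24 rat was above every MA12 rat, with rats 31 and 9N nearest to each other. The means of log2 CPM were 2.43 ± 0.47 at 12 h and 3.45 ± 0.29 at 24 h (SD, n = 4 each). The log2FC was 0.99 ± 0.22 (SE), a 1.99-fold difference, and 112 of the 10754 genes had a higher log2FC. Rat 16N was the highest of its group for *Kcnk4*, as it was for 6 of the 7 members with counts. Without it, the log2FC was 0.86 and *Kcnk4* no longer met the DEG threshold. Among rats whose number ends in N alone, 2 of MA12 and 4 of MA24, it was 1.36.

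The other TREK/TRAAK genes did not share this pattern. *Kcnk2* encodes TREK-1, a stretch-gated and heat-gated channel that G protein signalling closes. It stood at 165, 196, 226 and 186 CPM in the MA12 rats and at 182, 189, 197 and 219 CPM in the MA24 rats, in the order of rats given for *Kcnk4*. The MA24 range lay inside that of MA12, and the log2FC was 0.03 ± 0.11. *Kcnk10* encodes TREK-2, the closest relative of TREK-1. It had 22, 18, 13 and 4 counts in MA12 and 10, 8, 3 and 7 counts in MA24. Its log2FC was −0.90 ± 0.60 with overlapping groups, and −0.31 among rats numbered with N.

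*Kcnk9* encodes TASK-3, an acid-sensitive leak channel that many receptors coupled to Gq proteins inhibit. It measured 7.69, 8.69, 6.72 and 5.87 CPM in the MA12 rats and 4.60, 1.63, 3.91 and 5.39 CPM in the MA24 rats. All MA24 rats were lower than all MA12 rats, by a small gap between rats 7N and 16N, and rat 14N was the lowest of all 12. The means of log2 CPM were 2.86 ± 0.24 at 12 h and 1.87 ± 0.75 at 24 h (SD, n = 4 each). The log2FC of −0.90 ± 0.28 did not meet the DEG threshold in the quasi-likelihood test, and did in edgeR's likelihood ratio test (−0.90) and in DESeq2 (−0.89). It met it also without MA12 rat 7N (−0.98) or MA24 rat 9N (a log2FC of −1.0). These calls come from the comparison that the family was chosen by, so nothing is drawn from them. The log2FC was −0.65 without rat 14N and −0.69 among rats numbered with N.

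*Kcnk3* encodes TASK-1, which can pair with TASK-3 in one channel. Its level was 8.28, 6.77, 7.00 and 5.76 CPM in MA12 and 5.63, 3.50, 3.75 and 6.60 CPM in MA24. The MA24 rats fell into 2 low values and 2 within or just under the MA12 range, and the groups overlapped. The log2FC was −0.51 ± 0.23, and −0.38 among rats numbered with N.

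Some marker lists also differed between MA24 and MA12. The table held 4 of 5 markers of thalamus, none of them at 0, and they summed to 33.8 to 62.6 CPM in MA12 and 28.9 to 33.4 CPM in MA24, with no overlap. Of the 3 tested, *Prkcd* was lower in MA24 as a DEG, and 1 had an unadjusted p below 0.05. Their highest sum, 73.5 CPM, was in non-addicted rat 11, which also had the highest *Kcnk9* level. Mural cell markers *Rgs5* and *Abcc9* (2 of 5) and the astrocyte transporter *Slc1a2* (1 of 6) were lower DEGs too. Of the 6 astrocyte markers, 4 had a log2FC below 0 and 2 above it, and DESeq2 called none. Mural cell markers summed to 91.5 to 113 CPM in MA24 and 104 to 168 CPM in MA12. Astrocyte markers summed to 2012 to 2350.5 CPM and 2045.5 to 2577 CPM, and no marker of either list was at 0. Of 5 cortical markers, 3 were tested with no DEG by the quasi-likelihood test, while the likelihood ratio test and DESeq2 called *Slc17a7*. Oligodendrocyte markers had 5 of 6 log2FC above 0, and striatal projection neuron markers 4 of 8 tested. All 4 choroid plexus markers tested (median −0.51) and all 3 oligodendrocyte precursor markers were below 0. None of these was a DEG by quasi-likelihood test, likelihood ratio test or DESeq2. An unadjusted p below 0.05 was found for 2, 3, 1 and 1 of them in that order, beside 2538 of all 10754 genes tested. The part of these marker lists in the values of the channel genes was not tested.

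*Kcnk1* encodes TWIK-1, a channel of weak rectification. It measured 60.0, 54.8, 57.8 and 73.4 CPM in MA12 and 62.4, 53.1, 52.5 and 69.97 CPM in MA24, with a log2FC of −0.05 ± 0.12. The groups overlapped, with rats 7N and 16N the highest of each. *Kcnk6*, the other TWIK gene, was listed at 0 in all 12 libraries. If its reads were counted, a count of 0 allows up to 3 counts, which is 0.126 to 0.168 CPM depending on the library, and this limit covers counting error only. Whether the annotation used for counting let the gene receive reads was not tested.

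*Kcnk12* encodes THIK-2, a subunit that is largely silent by itself. It had 24, 45, 44 and 4 counts in MA12 rats 21, 31, 4N and 7N, and 30, 5, 28 and 28 counts in MA24 rats 9N, 14N, 15N and 16N. Each group held 1 rat far below the others. The log2FC of −0.23 ± 0.57 was 0.10 without rat 14N, 0.08 without MA12 rat 4N and near 0 without MA12 rat 31, so that its sign rests on single rats.

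**Figure D2:**
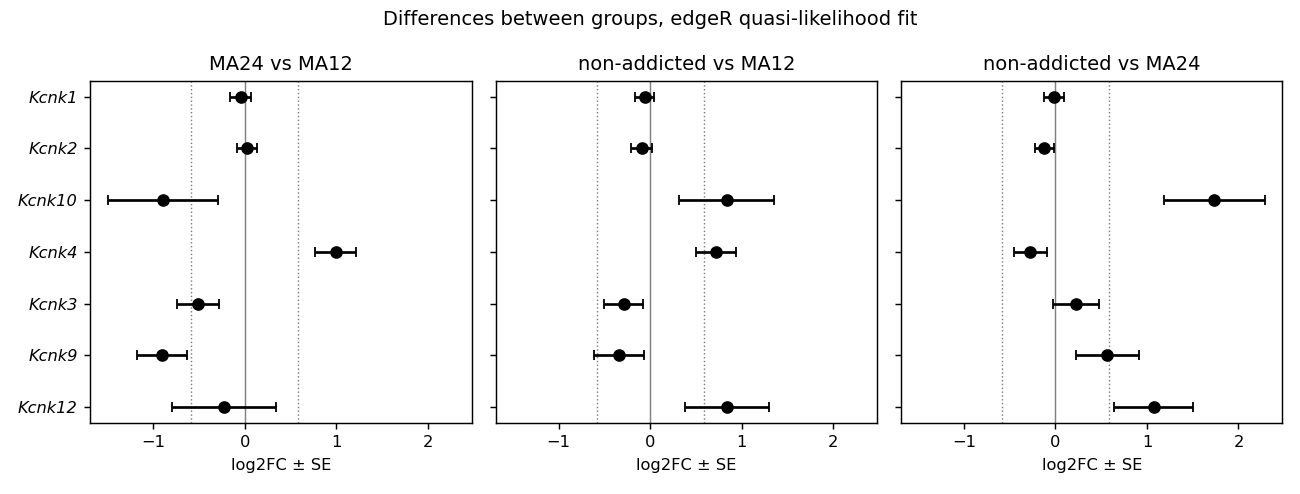
Log2FC with its SE (bars) from the edgeR quasi-likelihood fit for the 7 members in the 3 comparisons, the first group named minus the second, with dotted lines at a 1.5-fold difference. Kcnk4 lies at 0.99, 0.72 and −0.27 from left to right, Kcnk10 reaches 1.74 on the right, and Kcnk1 and Kcnk2 stay near 0 in each panel.

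The second question was how the rats labelled non-addicted differed from those at 12 h. None of the 6 members other than *Kcnk4* was a DEG by the quasi-likelihood test, the likelihood ratio test or DESeq2, and 0 of these had an unadjusted p below 0.05. Of all 10758 genes tested, 0.251% were DEGs and 1327 genes had an unadjusted p below 0.05. The groups overlapped for every member, while 7.11% of all genes had groups that did not overlap. The members' median log2FC was −0.060, and that of all genes −0.012.

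*Kcnk4* stood at 7.14, 8.68, 10.7 and 9.99 CPM in non-addicted rats 9, 11, 12 and 13. Rat 31 of the MA12 group was inside this range and the other MA12 rats were below it. The log2FC was 0.72 ± 0.22, a 1.65-fold difference, and 0.46 among rats numbered without N. The order of the group means was thus MA12, non-addicted and MA24, and both pairs of neighbours in this order overlapped, the first by rat 31 alone.

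*Kcnk12* had 54, 54, 62 and 27 counts in the non-addicted rats. Rats 9, 11 and 12 were above every MA12 rat once scaled by library, and rat 13 was not. The log2FC was 0.84 ± 0.46, with an adjusted p of 0.481 in the edgeR fit and an exact permutation p of 0.143 (two-sided, n = 4 each). It was 0.53 without MA12 rat 7N, whose library held 4 counts of the gene, and 0.72 among rats numbered without N.

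*Kcnk10* had 20, 43, 15 and 16 counts in the same rats. Rat 11 was the highest of all 12, and the log2FC of 0.84 ± 0.52 (edgeR adjusted p of 0.549, exact permutation p of 0.2) was 0.37 without it. Among rats numbered without N it was 0.46.

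*Kcnk9* measured 2.92, 9.72, 4.51 and 5.98 CPM, the widest span of CPM of the 3 groups. The non-addicted rats reached above and below all MA12 rats, and the log2FC was −0.34 ± 0.27 (edgeR adjusted p of 0.660, exact permutation p of 0.314). It was −0.70 without rat 11 and −0.11 without rat 9, so its size rests on single rats. *Kcnk3* measured 5.42, 6.36, 7.18 and 3.85 CPM, with a log2FC of −0.29 ± 0.21 (edgeR adjusted p of 0.617, exact permutation p of 0.2), and −0.13 without rat 13. For both genes the non-addicted mean lay between those of MA24 and MA12, and it overlapped each of them.

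*Kcnk1* stood at 56.9, 57.4, 55.9 and 66.3 CPM and *Kcnk2* at 189, 156, 185 and 198 CPM. Both lay within the span of the other groups but for *Kcnk2* in rat 11, the lowest of 12. The 95% interval of the log2FC was −0.29 to 0.17 for *Kcnk1* and −0.33 to 0.14 for *Kcnk2*, so that a 1.5-fold difference in either direction, 0.58 on this scale, lay outside both. Mural cell markers summed to 63.2 to 94.5 CPM in the non-addicted rats, below the whole MA12 range, and *Abcc9* and *Acta2* were lower as DEGs. Of 5 endothelial markers, *Kdr* was lower, with sums of 286 to 403 CPM against 387 to 504 CPM in MA12. Hypothalamic markers summed to 2.61 to 13.7 CPM in the non-addicted rats and 1.80 to 3.70 CPM in MA12. All 4 tested of 5 had a log2FC above 0 (median 1.40), with no DEG by the 3 tools. Of these, 2 had an unadjusted p below 0.05, beside 1327 of all 10758 genes tested. Choroid plexus markers summed to 4.37 to 22.2 CPM and 1.74 to 5.81 CPM, with 3 of 5 tested above 0 (median 0.70), and the likelihood ratio test alone called *Ttr*. Microglial markers summed to 185 to 245 CPM and 223 to 266 CPM, with 4 of 5 below 0, and the likelihood ratio test and DESeq2 called *Cx3cr1*. Of these lists, *Pmch* of the hypothalamus was at 0 in all 12 libraries, no other gene was at 0 in either group, and their part in the channel values was not tested.

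The third question was how the non-addicted rats differed from those at 24 h. All non-addicted rat numbers lack the N and all MA24 numbers have it, so group and kind of number cannot be told apart. None of the 6 members other than *Kcnk4* was a DEG by the quasi-likelihood test or DESeq2, 1 was by the likelihood ratio test, and 2 had an unadjusted p below 0.05. Over all 10744 genes tested, 0.456% were DEGs and 1879 genes had an unadjusted p below 0.05. The groups did not overlap for 1 member, against 10% of all genes. The median log2FC was 0.22 over the members and 0.003 over all genes.

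*Kcnk10* was the member without overlap. Its level was 1.04, 2.12, 0.615 and 0.832 CPM in the non-addicted rats and 0.430, 0.394, 0.154 and 0.370 CPM in the MA24 rats. Those values rest on 15 to 43 counts and on 3 to 10 counts per library. Mean log2 CPM was 0.18 ± 0.70 and −1.27 ± 0.50 (SD, n = 4 each), and the log2FC was 1.74 ± 0.55. An exact permutation test gave p = 0.0286, the lowest value possible with 4 rats per group, and 0.343 after Benjamini-Hochberg adjustment over the 12 tests of 6 members in the 2 comparisons. The adjusted p over all genes was 0.136 in the quasi-likelihood test and 0.0418 in the likelihood ratio test, and without rat 11 the log2FC was 1.27.

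*Kcnk12* was higher in the mean of the non-addicted rats than in that of MA24, by a log2FC of 1.07 ± 0.43. Rats 9, 11 and 12 exceeded all MA24 rats and rat 13 lay among them. The exact permutation p was 0.0857 and 0.48 after adjustment over the 12 tests, and edgeR's adjusted p was 0.220. Without MA24 rat 14N the log2FC was 0.74.

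For *Kcnk9* the log2FC was 0.57 ± 0.34 (edgeR adjusted p of 0.383, exact permutation p of 0.371), and with each rat left out it ran from 0.20, without rat 11, to 0.78, without rat 9. For *Kcnk3* it was 0.22 ± 0.25 (edgeR adjusted p of 0.654, exact permutation p of 0.429), and it ran from 0.09 to 0.40 with each rat left out. *Kcnk4* differed by −0.27 ± 0.18, with the non-addicted range of 7.14 to 10.7 CPM overlapping the MA24 range of 8.77 to 13.9 CPM. The 95% interval was −0.25 to 0.22 for *Kcnk1* and −0.33 to 0.09 for *Kcnk2*.

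Several marker lists differed in this comparison, in which 1879 of all 10744 genes tested had an unadjusted p below 0.05. Oligodendrocyte markers summed to 11667 to 17284 CPM in the non-addicted rats and 18107 to 21237 CPM in MA24, and all 6 had a log2FC below 0, with no DEG by quasi-likelihood test, likelihood ratio test or DESeq2 and 6 unadjusted p-values below 0.05. Endothelial markers summed to 286 to 403 and 460 to 508 CPM, with *Cldn5* and *Kdr* lower as DEGs (2 of 5). Choroid plexus markers, 6 of 6 present, went the other way, with 4.37 to 22.2 CPM against 2.26 to 3.69 CPM and no DEG among 5 tested by quasi-likelihood test, though 2 had an unadjusted p below 0.05 and the likelihood ratio test called 2 and DESeq2 1. Hypothalamic markers summed to 2.61 to 13.7 CPM against 1.08 to 3.01 CPM, with 4 of 4 tested above 0 (median 1.04), 1 unadjusted p below 0.05 and *Avp* called by the likelihood ratio test alone. The value of 13.7 CPM was that of rat 11, the highest of all 12, as it was for *Kcnk9* and *Kcnk10*. Mural cell markers summed to 63.2 to 94.5 CPM against 91.5 to 113 CPM, with 5 of 5 below 0, no DEG by the 3 tools and 4 unadjusted p-values below 0.05. None of these markers but *Pmch* was at 0 in either group, and their part in the *Kcnk9*, *Kcnk10* and *Kcnk12* values was not tested.

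The members differed in how widely rats of one group varied. The pooled SD within groups on the log2 scale was 0.15 for *Kcnk2* and 0.17 for *Kcnk1*, the genes with the most counts. It was 0.35 for *Kcnk4*, 0.36 for *Kcnk3*, 0.61 for *Kcnk9*, 0.65 for *Kcnk10* and 0.99 for *Kcnk12*. Counting error by itself would give 0.02, 0.04, 0.12, 0.14, 0.15, 0.48 and 0.36 for these genes in the same order. *Kcnk9* and *Kcnk3* had similar mean counts over the 12 libraries, 119.5 and 124, yet *Kcnk9* ranged 6.30-fold in counts from its lowest to its highest library and *Kcnk3* 2.77-fold. In proportion, the spread among rats was closest to that of counting for *Kcnk10*, at 0.65 against 0.48. The SD among rats was taken with a prior count of 2, which narrows it at low counts, and the counting SD without one. The closeness for *Kcnk10* may thus come in part from the scale.

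**Figure D3:**
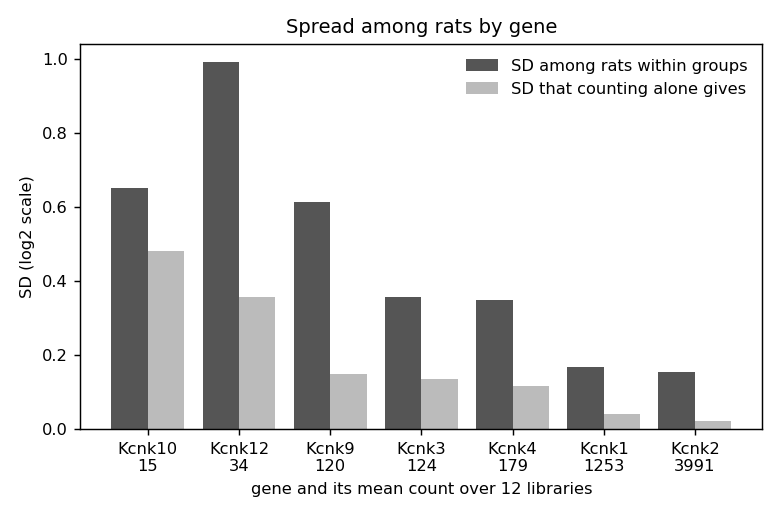
Pooled SD of log2 CPM among the 4 rats within a group (dark bars) and the SD that counting error alone gives (light bars), on the log2 scale, with the genes ordered by mean count. The dark bar is tallest for Kcnk12 at 0.99, and in proportion to each other the bars are closest for Kcnk10, at 0.65 and 0.48.

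Of 7 further family symbols looked for, 5 were rows of the table. *Kcnk13*, the other gene of the THIK branch, had 76 to 180 counts per library and *Kcnk15*, a TASK-related gene whose subunit is silent alone, 161 to 252. *Kcnk16* had 14 to 107, *Kcnk5* 10 to 31 and *Kcnk18* 0 to 5 counts, and *Kcnk18* failed the filter on low counts. Of the 4 tested, none was a DEG in any of the 3 comparisons by quasi-likelihood test, likelihood ratio test or DESeq2, and none had an unadjusted p below 0.05. *Kcnk16* had the largest difference of them in MA24 vs MA12, with a log2FC of −0.58 ± 0.43, and *Kcnk15* differed by 0.18 ± 0.16.

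**Figure D4:**
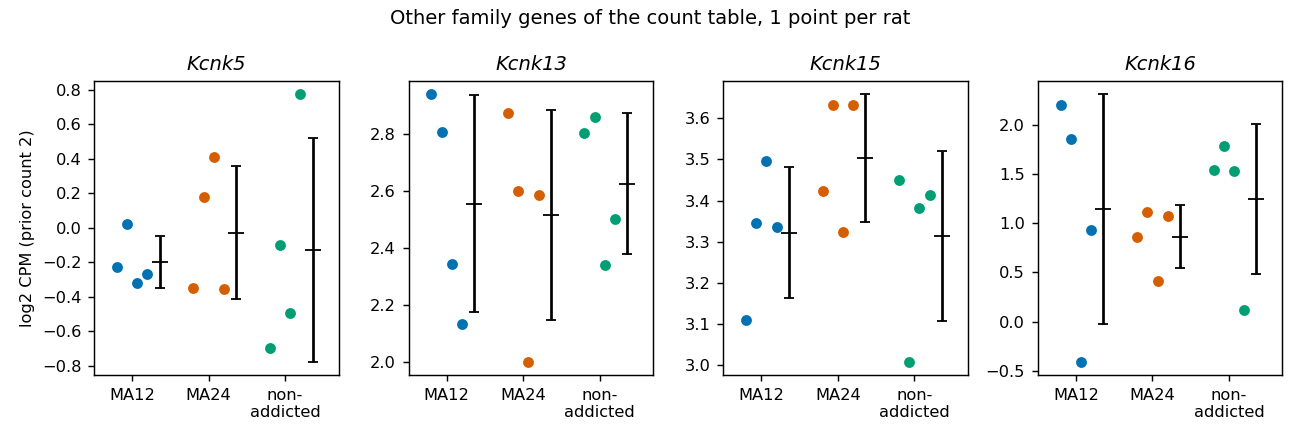
Log2 CPM (prior count 2) of the other 4 family genes that passed the filters, 1 point per rat with the mean and SD of each group of 4 in black and a scale of its own for each gene. The 3 groups overlap for every gene.

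Proteins that bind or regulate these channels were taken as a list of 21 genes, all in the table, which held the Ywha adaptor proteins, the Gq pathway that closes TASK channels, kinases and scaffolds. In MA24 vs MA12, 14 were tested and 2 were lower as DEGs, beside 2.45% of all genes tested. Of the 14, 10 had a log2FC below 0, and the median log2FC was −0.24, beside −0.016 over all genes. An unadjusted p below 0.05 in the quasi-likelihood test was found for 10 of the 14, and for 2538 of all 10754 genes tested. The filters had removed the rest of the list, and the list was chosen with earlier results of these data known. Nothing is drawn from these counts and calls. *Map2*, a dendritic microtubule protein that binds TREK-1, measured 322 to 425 CPM in MA12 and 177 to 272 CPM in MA24 (log2FC −0.63 ± 0.12). *Gnaq*, the alpha subunit of Gq, measured 31.6 to 43.8 CPM in MA12 and 16.8 to 31.7 CPM in MA24 (log2FC −0.60 ± 0.16). The groups did not overlap for *Map2* and just overlapped for *Gnaq*. In the comparisons of the non-addicted rats with MA12 and MA24, 14 and 16 genes of the list were tested with medians of −0.075 and 0.10, beside −0.012 and 0.003 over all genes. None was a DEG by quasi-likelihood test, likelihood ratio test or DESeq2. An unadjusted p below 0.05 was found for 2 and 3 of them, beside 1327 of 10758 and 1879 of 10744 genes over all.

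Other genes of background conductance, such as the sodium leak channel *Nalcn* and inward rectifiers of the Kcnj family, made a list of 11, of which 9 were in the table. In MA24 vs MA12, 8 were tested with a median log2FC of −0.15. In the comparisons of the non-addicted rats with MA12 and with MA24, 6 and 8 were tested with medians of −0.053 and 0.029. None was a DEG in any comparison by quasi-likelihood test, likelihood ratio test or DESeq2. An unadjusted p below 0.05 was found for 2, 1 and 1 of them, beside 2538 of 10754, 1327 of 10758 and 1879 of 10744 genes over all.

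The genes whose levels ran most like those of *Kcnk4* over the 12 libraries, among 10764 with a mean count of at least 50, included *Nphp4* (Pearson's r = 0.94) and *Osbpl7* (0.92). The most opposite were *Hsd17b12* (−0.91), the circadian clock gene *Arntl* (−0.91) and *Neto2* (−0.91). *Arntl* measured 49.2 to 62.2 CPM in MA12, 33.1 to 41.3 CPM in MA24 and 35.4 to 39.5 CPM in the non-addicted rats, so MA12 stood above both other groups. For *Kcnk9* the highest were *Rbfox2* (0.97), *Rims3* (0.96) and *Usp31* (0.96), and the lowest *Ankrd37* (−0.95), *Ppia* (−0.93) and *Mrpl2* (−0.93). Leaving out the 2 rats farthest from the median of the channel gene gave values of 0.83 to 0.90 for the genes that ran alike and −0.88 to −0.81 for the opposite ones. These coefficients describe points that share the same libraries and scaling and the same 3 groups, and they come from a search over all those genes.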

How the data were processed

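The authors trimmed paired-end reads with cutadapt (version 1.18 per the labels), aligned them to rn6 with STAR (2.7.0e) and counted them per gene with featureCounts. They deposited raw counts, without normalization, and all 12 columns were used. HTSeq (0.12.4) is also listed, without a role. Handling of strand and of reads at several positions is not given in the sources used here, so overlapping genes and near-identical copies are uncertain. No rn6 reference was used here, and promoter windows came from RefSeq (GRCr8).

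Each pair of groups was fitted by itself in edgeR 4.0.16 (R 4.3.3). Tested genes had a mean count over 4 in the 8 libraries and were not among the 15% least variable in log2 CPM, which is one reading of the study's filters. TMM scaling, glmQLFit and glmQLFTest followed, with Benjamini-Hochberg adjustment over all genes tested. Single members were compared by two-sided exact permutation tests of mean log2 CPM over the 70 splits of 4 rats against 4 (Python 3.11.15, scipy 1.17.1). Library pairs within a group gave chi-square values between 9.98 and 29.0 for each degree of freedom, so each rat was 1 replicate, and total counts of 17908962 to 23850284 limit the genes with the lowest counts most. The fit was also run, without its variance filter, on simulated counts. The outcome is not reported here and nothing above rests on it.

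The members, the lists and the tests were chosen with earlier results of these data known. Named were all members, genes of the lists of channel regulators and background conductance genes that were DEGs in any comparison, and for Kcnk4 and Kcnk9 the 3 highest and 3 lowest correlations, of which 1 is not reported here. Genes named beyond that rule are genes of the marker lists called by any tool or at 0, the other family genes and the examples of the conductance list. Marker lists covered striatal projection neurons, cortex, thalamus, hypothalamus, choroid plexus, astrocytes, oligodendrocytes and their precursors, endothelium, mural cells and microglia. Oligodendrocyte precursor markers summed to 106 to 161 CPM. The 7 lists of striatal, cortical, hypothalamic, choroid plexus, oligodendrocyte, precursor and microglial markers held 39 genes of the table and no DEG by the quasi-likelihood test in any comparison, while 19 had an unadjusted p below 0.05 in at least 1 comparison and the likelihood ratio test called 5 and DESeq2 3. Over all genes, 2538 of 10754, 1327 of 10758 and 1879 of 10744 had such a p in the single comparisons. The share in at least 1 comparison was not counted, so nothing is drawn from the 19. Alternatives were the likelihood ratio test, DESeq2 1.42.0, RLE factors, changed filters, a fit with all 3 groups, leaving out each rat, the kind of rat number, and for levels other prior counts and library totals.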

Additional observations from a re-analysis of the deposited data

Results flagged for a closer look

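In 4 of 21 groups of 4 rats (7 members in 3 groups), 1 rat lay far from the others by Dixon's ratio, the gap to its nearest neighbour over the whole range, above its 95% critical value. If values were normal and independent, chance would flag about 1.05 of 21. Values from few counts and from the same rats need not be, so nothing is drawn from the number flagged. *Kcnk12* was low in MA24 rat 14N (ratio 0.917, 5 counts) and in non-addicted rat 13 (0.852, 27 counts). *Kcnk10* was low in MA24 rat 15N (0.836, 3 counts), and *Kcnk1* was high in non-addicted rat 13 (0.846, 1274 counts).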

How the results depend on the processing

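No paired analysis was possible because the groups share no rat numbers. All 63 mean levels under other prior counts or without TMM moved by less than 1 SD, and of 335 log2FC under alternatives, 309 kept their sign and their side of the DEG threshold. *Kcnk4* in MA24 vs MA12, the value the family was chosen by, ran from 0.83 to 1.23 with each rat left out and was no DEG without MA24 rat 16N (0.86), and nothing is drawn from its other calls. *Kcnk9* in the same comparison met the DEG threshold under the likelihood ratio test (−0.90) and DESeq2 (−0.89), which gave 2 member DEGs each. It ran from −1.10 to −0.65 with each rat left out, and nothing is drawn from these calls either. Member DEGs were 0 to 2 with each rat left out. *Kcnk10* met it in non-addicted vs MA24 under the likelihood ratio test (1.74), the 1 member DEG there. Signs changed only for *Kcnk1*, *Kcnk2* and *Kcnk12*. In MA24 vs MA12, leaving out rats gave −0.13 to 0.06 for *Kcnk1*, −0.034 to 0.11 for *Kcnk2* and −0.56 to 0.10 for *Kcnk12*, and *Kcnk2* was −0.056 among rats numbered with N and −0.073 with the kind of number as covariate. In non-addicted vs MA12, *Kcnk1* was 0.056 and *Kcnk2* 0.024 among rats numbered without N, and 0.043 and 0.011 with the covariate, and *Kcnk2* ran from −0.16 to 0.0040 with rats left out. In non-addicted vs MA24, *Kcnk1* ran from −0.076 to 0.074. The cause of these shifts was not tested. DEGs over all genes in MA24 vs MA12 were 116 among rats numbered with N, 47 with the covariate, and 129 to 436 with each rat left out (151 without MA12 21, 129 without MA24 14N, 436 without 9N). In non-addicted vs MA12 they were 87 by likelihood ratio test, 72 by DESeq2, 5 without the variance filter, 12 without filters, 4 with at least 10 counts in every library, 16 with all 3 groups in the fit, 63 among rats without N, 10 with the covariate, and 8 to 93 with each rat left out (93 without MA12 7N, 84 without non-addicted 13, 8 to 17 without 31, 11, 21, 4N or 12). In non-addicted vs MA24 they were 163, 116, 0 (2229 at an unadjusted p below 0.05), 10, 0 (2146) and 2 under the first 6 of these, and 0 (1211, without non-addicted 12) to 187 with each rat left out (187, 89, 77 and 30 without 13, 9, 14N and 9N, and 1, 3 and 6 without 15N, 11 and 16N). *Kcnk10* and *Kcnk12* could not be tested at 10 counts in every library. At 3 to 62 counts per library, depth limits both.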
